A study of Mus musculus with 16 samples.

Results

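Transcripts of 70 chromatin modifier and remodeller genes were followed across 4 groups of splenic myeloid-derived suppressor cells (MDSCs) from tumor-bearing mice. The genes were taken by name, as every symbol starting with Kmt2, Kdm, Setd, Smarc, Hdac, Arid or Chd (Chd before a digit) that had 10 or more counts in at least 8 of 16 libraries. Of 24421 symbols, 80 carried such a name and 70 passed the count minimum, which 9746 symbols passed in all. The 70 comprised 5 Kmt2, 15 Kdm, 11 Setd, 11 Smarc, 10 Hdac, 9 Arid and 9 Chd genes. The 10 symbols left out for low counts were Arid3c, Chd3os, Chd5, Hdac11, Kdm4d, Kdm5d, Kdm8, Smarca1, Smarca5-ps and Smarcd3.

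DNA in the nucleus is wrapped around histones, and enzymes that mark histones or move nucleosomes set which genes can be transcribed. Kmt2 and Setd proteins are largely lysine methyltransferases, Kdm proteins remove methyl groups from histone lysines, and Hdac proteins remove acetyl groups. Smarc proteins are ATPases and core subunits of SWI/SNF and related remodeling complexes, Chd proteins are ATP-driven remodelers with chromodomains, and Arid proteins carry an AT-rich DNA-binding domain and serve in SWI/SNF or in co-repressor complexes. In the myeloid lineage these enzymes take part in the choice between monocytic and granulocytic fates and in the induction of inflammatory genes.

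Each library was a sample of cells sorted from the spleen of a C57BL/6 mouse bearing a subcutaneous B16.F10 melanoma. M-MDSCs, the monocytic subset, were CD11b high Ly6C+Ly6G-, and G-MDSCs, the granulocytic subset, were CD11b high Ly6C-Ly6G+. Mice were wild type (WT) or Nlrp3-/-, a whole-body knockout in which an EGFP cassette disrupts the gene of the inflammasome sensor NLRP3, so that every cell of the host lacked it and the injected tumor cells did not. There were 4 mice of each genotype and both subsets came from each mouse, giving 4 libraries in each of the groups WT M-MDSC, Nlrp3-/- M-MDSC, WT G-MDSC and Nlrp3-/- G-MDSC.

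The libraries were 3′ mRNA-seq and held 2295967 to 6079866 counts, so that 3 counts corresponded to 0.493 to 1.31 CPM (counts scaled to the same total in each library). Nlrp3 had 219 to 632 counts in WT and 4 to 11 in Nlrp3-/- M-MDSC libraries, and 744 to 1365 against 21 to 59 in G-MDSC libraries. A list of 10 monocytic markers summed to 5499 to 8726 CPM in M-MDSCs and 922 to 1540 CPM in G-MDSCs. Of 10 granulocytic markers 9 were among the symbols, Ly6g not being one of them, and their sum was 112091 to 171895 CPM in G-MDSCs and 1301 to 7700 CPM in M-MDSCs, where WT replicate 2 stood apart at the top of the range. Markers of the subsets themselves differed by genotype. In G-MDSCs the monocytic sum was 922 to 1252 CPM in WT and 1364 to 1540 CPM in Nlrp3-/- libraries, with 1 marker called higher. In M-MDSCs 1 monocytic marker was called lower. Of the granulocytic markers 2 were called higher in M-MDSCs and 1 lower in G-MDSCs. Markers of other cells moved with genotype as well. The summed level of 8 red pulp macrophage markers was 95.3 to 107 CPM in WT and 221 to 340 CPM in Nlrp3-/- M-MDSCs, with 6 of the 8 called higher, and 106 to 272 against 447 to 621 CPM in G-MDSCs, with 7 called higher. Natural killer markers summed to 30.7 to 65.6 against 91.5 to 134 CPM in M-MDSCs and 21.3 to 45.9 against 52.8 to 88.1 CPM in G-MDSCs, and eosinophil and basophil markers to 4.64 to 24.9 against 24.5 to 68.9 CPM and 27.1 to 51.8 against 57.8 to 65.3 CPM. Of 6 natural killer markers 1 was called higher in each subset, and of 7 eosinophil and basophil markers 1 in M-MDSCs and 0 in G-MDSCs. Gzma made up the largest part of the natural killer sum, at 12.5 to 27.6 CPM in WT and 43.2 to 73.2 CPM in Nlrp3-/- G-MDSCs. Eomes of the same list was lower there without a call, at 4.06 to 8.01 against 0.262 to 3.47 CPM. Proliferation genes summed to 166 to 562 CPM in WT and 66.0 to 146 CPM in Nlrp3-/- M-MDSCs, and to 137 to 456 against 62.0 to 191 CPM in G-MDSCs, with 2 called lower in each subset. Melanoma markers stayed at or under 1.45 CPM. The part of these shifts in the results below was not tested.

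The 70 genes together took a small share of each library, and the share was lower in Nlrp3-/- cells. In M-MDSCs it was 0.763 to 0.832% of counts for WT and 0.641 to 0.765% for Nlrp3-/- libraries, ranges that overlapped at their edge, and in G-MDSCs 0.824 to 0.887% and 0.652 to 0.692%, which did not overlap. Such shares cannot tell fewer cells of a kind from less RNA per cell. With about 1 fragment counted per transcript, CPM was not divided by length. On that scale Kmt2e, a divergent member of the mixed-lineage leukemia family, was the most abundant at a mean of 723 CPM over all 16 libraries, followed by Arid4a, a subunit of Sin3 deacetylase complexes, at 572 CPM. The order varied between groups: in WT G-MDSCs Arid4a (1138 ± 91.3 CPM, mean ± SD) and Kmt2e (1056 ± 91.5 CPM) were within their spread, and in Nlrp3-/- G-MDSCs Kdm7a (666 CPM) and Chd7 (601 CPM) had higher means than Arid4a (514 CPM). The lowest were Setd4 at 3.85 CPM and Kdm1b at 3.8 CPM, a level of few counts per library at which only large differences are detectable.

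Loss of Nlrp3 went with lower transcripts of chromatin genes in both subsets. In M-MDSCs 21 of the 70 were called, 18 lower and 3 higher in Nlrp3-/- cells, and in G-MDSCs 25 were called, 21 lower and 4 higher. A call required an FDR under 0.05 in edgeR's quasi-likelihood test, adjusted over all genes tested, and a change above 1.5-fold. Among all 9986 genes tested in M-MDSCs 10.6% were called (7.1% lower and 3.51% higher), against 30% of the chromatin genes (25.7% lower and 4.29% higher). Among all 9273 genes tested in G-MDSCs 16.4% were called (11.7% lower and 4.7% higher), against 35.7% of the chromatin genes (30% lower and 5.71% higher). The median log2 fold change of the 70 was -0.28 in M-MDSCs, where that of all genes was 0.07, and -0.40 in G-MDSCs, where that of all genes was 0.03. Values below 0 were found for 47 of the 70 in M-MDSCs (67.1%, against 45% of all genes) and for 50 in G-MDSCs (71.4%, against 48.1%). All Nlrp3-/- libraries lay below all WT libraries for 21 of the 70 in M-MDSCs (30%, against 11.7% of all genes) and for 24 in G-MDSCs (34.3%, against 12.3%). They lay above for 4 (5.71%, against 7.59%) and 5 (7.14%, against 12%). These counts rest on a scaling (TMM) that assumes most genes unchanged. With scaling by library size alone the medians of all genes were 0.17 and 0.16 in M-MDSCs and G-MDSCs, chromatin genes gave 13 lower and 3 higher calls and 17 lower and 4 higher calls, and all genes 5.7% lower and 6.85% higher and 9.21% lower and 8.55% higher.

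Calls were shared between the subsets. Of the chromatin genes called lower, 15 were lower in both subsets, which is 83.3% of the M-MDSC list and 71.4% of the G-MDSC list, and Hdac5 and Kdm4a were higher in both. Over all genes 549 were called lower in both subsets, or 77.4% of the M-MDSC and 50.6% of the G-MDSC list, so that sharing of lower calls was common outside the chromatin genes too. Higher calls were shared less over all genes, with 98 in both, or 27.9% of the M-MDSC and 22.5% of the G-MDSC list. For chromatin genes these were 2 of 3 and 2 of 4. The 15 were Arid4a, Arid4b, Chd1, Chd2, Chd9, Kdm1a, Kdm3b, Kdm4c, Kdm5b, Kmt2a, Kmt2d, Setd2, Smarca5, Smarcc1 and Smarce1. The subsets were sorted from the same mice, so these are not separate sets of animals.

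**Figure D1:**
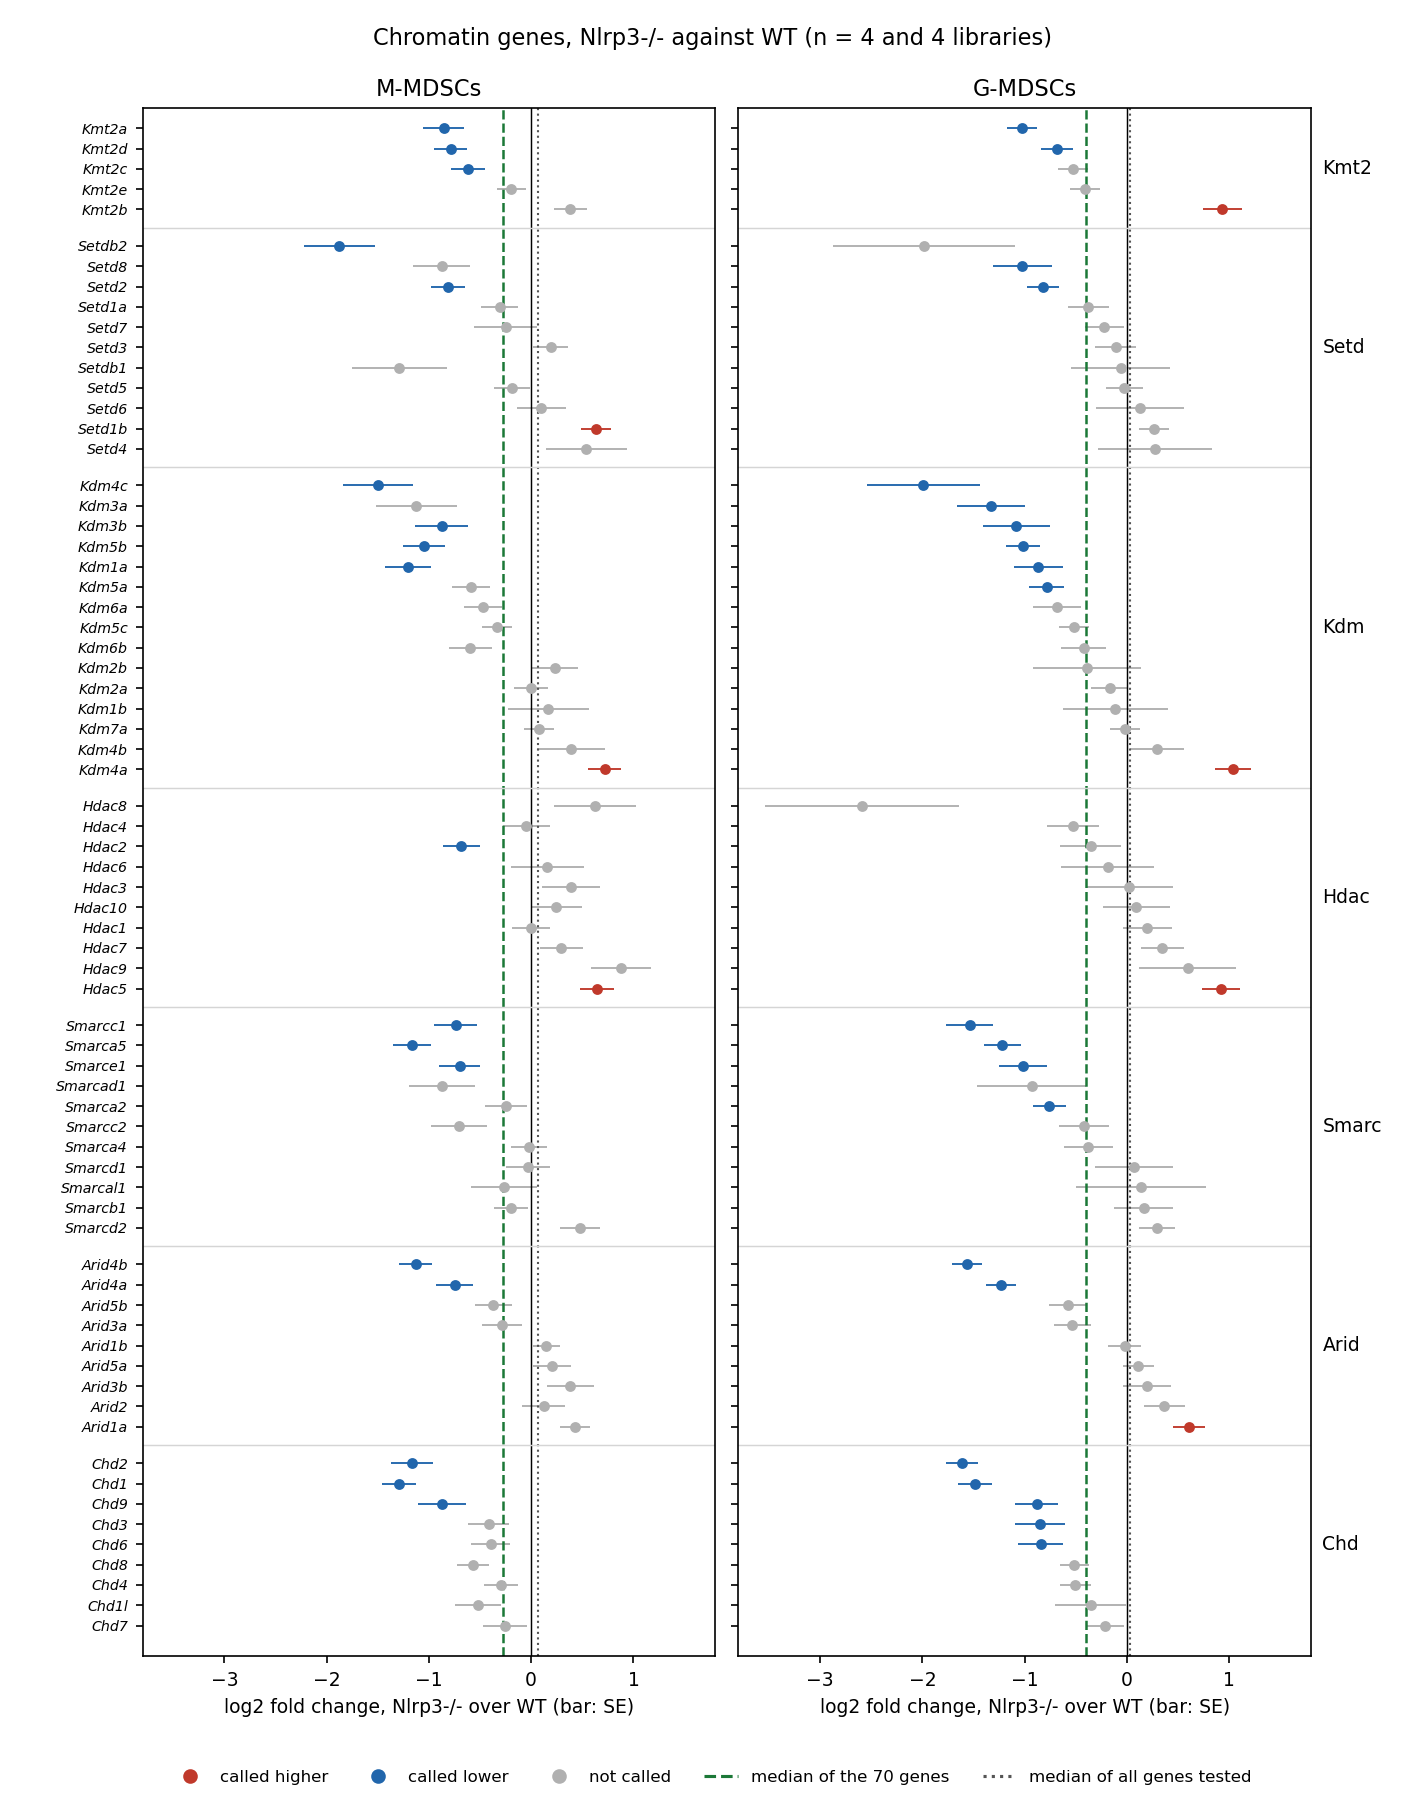
Log2 fold change of Nlrp3-/- over WT cells for each of the 70 chromatin genes by family, in M-MDSCs (left) and G-MDSCs (right), with the standard error as a bar, n = 4 and 4 libraries. Colored points are genes called higher or lower, and the dashed line is the median of the 70 (-0.28 and -0.40) against the dotted median of all genes (0.07 and 0.03); all 9 Chd genes lie below 0 in both panels.

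Among the remodelers the Chd family had values of 1 sign. All 9 genes had a log2 fold change below 0 in both subsets, with 3 called in M-MDSCs (family median -0.52) and 5 in G-MDSCs (-0.84), and with scaling by library size alone all 9 were still below 0; after the GC and length correction described below Chd7 alone was above 0 in G-MDSCs, at 0.10. Chd1 and Chd2, which act at transcribed genes, had the lowest FDRs of the family. For Chd1 (chr17:15704967-15772610 in mm10) the WT M-MDSC libraries gave 182, 178, 169 and 198 CPM and the Nlrp3-/- libraries 67.6, 94.2, 59.3 and 69.8 CPM, and in G-MDSCs the values were 274, 324, 243 and 272 against 101, 127, 96.8 and 97.3 CPM. The groups were separated in both subsets, with log2 fold changes of -1.29 ± 0.17 (SE, n = 4 and 4; edgeR FDR 0.00216) and -1.48 ± 0.16 (FDR 6.26e-05). Chd2 (chr7:73426638-73541830) read 198, 263, 192 and 211 CPM in WT against 69.6, 139, 89.6 and 82.7 CPM in Nlrp3-/- M-MDSCs, and 552, 442, 395 and 495 against 140.2, 177, 171 and 164 CPM in G-MDSCs. Its groups were separated too, and it fell by 1.16 and 1.61 on the log2 scale (edgeR FDR 0.0066 and 3.67e-05). Chd9 fell in both subsets (-0.87 ± 0.23 and -0.88 ± 0.21), although in M-MDSCs the highest Nlrp3-/- library, at 114 CPM, overlapped the lowest WT library at 109 CPM; its calls ended in both subsets with the GC and length correction, and the M-MDSC call held in 3 of 8 fits without 1 library. Chd3, an ATPase of the NuRD deacetylase complex, and Chd6 were called in G-MDSCs (-0.85 ± 0.25 and -0.84 ± 0.22); their M-MDSC values were -0.42 ± 0.20 and -0.40 ± 0.19. Chd4, the other NuRD ATPase, and Chd7, the highest of the family by the mean over all 16 libraries, were not called, at -0.30 and -0.26 in M-MDSCs and -0.50 and -0.21 in G-MDSCs.

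Of 11 Smarc genes 3 fell in M-MDSCs and 4 in G-MDSCs, and none rose. Smarca5 (chr8:80698507-80739497), the ATPase of ISWI remodelers that space nucleosomes, stood at 120.4, 134, 103 and 136 CPM in WT and 64.6, 56.3, 40.3 and 53.8 CPM in Nlrp3-/- M-MDSCs, and at 123, 191, 128 and 139 against 70.5, 62.2, 62.4 and 70.8 CPM in G-MDSCs. It fell in each subset without overlap of the groups (-1.16 ± 0.18, edgeR FDR 0.00413, and -1.22 ± 0.18, FDR 0.000443). Smarcc1, a scaffold of the SWI/SNF core, gave 90.1, 72.7, 85.1 and 86.7 against 35.1, 63.6, 63.1 and 36.6 CPM in M-MDSCs and 58.4, 52.1, 33.7 and 47.5 against 14.1, 19.3, 19.7 and 16.8 CPM in G-MDSCs. The groups did not overlap in either subset, and its log2 fold change was -0.74 ± 0.21 and -1.54 ± 0.23. Smarce1, another SWI/SNF subunit, fell in both (-0.70 ± 0.20 and -1.01 ± 0.23). Smarca2, one of the alternative SWI/SNF ATPases, was called in G-MDSCs, where it went from 400.4 ± 55.6 to 251 ± 43.6 CPM (mean ± SD, n = 4); in M-MDSCs its change was -0.25 ± 0.21. The alternative ATPase Smarca4 was not called in either (-0.02 ± 0.18 and -0.38 ± 0.24). Smarcd2, with Smarca2 the most abundant of the family, was above 0 in both without a call (0.47 ± 0.20 and 0.29 ± 0.18).

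Arid genes moved in both directions. Arid4a and Arid4b, paralogs that bind the retinoblastoma protein and join Sin3 complexes, fell in both subsets, whereas the family median was 0.12 in M-MDSCs and -0.02 in G-MDSCs. Arid4b (chr13:14063232-14199603) read 195, 255, 240.1 and 222 against 79.7, 116, 117 and 99.3 CPM in M-MDSCs and 662, 696, 642 and 655 against 203, 250.1, 259 and 241 CPM in G-MDSCs. These groups were far apart, with log2 fold changes of -1.13 ± 0.16 (edgeR FDR 0.00314) and -1.56 ± 0.15 (FDR 2.41e-05). Arid4a (chr12:71015990-71098592) fell from 400.5 ± 21.2 to 235 ± 63.4 CPM in M-MDSCs and from 1138 ± 91.3 to 514 ± 35.2 CPM in G-MDSCs (-0.75 ± 0.18 and -1.23 ± 0.14). Arid1a, the SWI/SNF subunit, moved the other way. It rose in G-MDSCs, from 231, 237, 292 and 242 CPM in WT to 338, 396, 409 and 478 CPM in Nlrp3-/- libraries (0.61 ± 0.15, edgeR FDR 0.0154); in M-MDSCs the values were 151, 198, 177 and 153 against 218, 242, 214 and 224 CPM, without overlap and without a call (0.43 ± 0.15, FDR 0.0785).

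Histone H3 lysine 4 methyltransferases did not move as a block. Of 5 Kmt2 genes 3 fell in M-MDSCs, and 2 fell while 1 rose in G-MDSCs. Kmt2a, the founding mixed-lineage leukemia gene, gave 179, 217, 175 and 193 against 83.9, 153, 103 and 76.8 CPM in M-MDSCs and 324, 289, 325 and 284 against 139, 152, 179 and 167 CPM in G-MDSCs. It fell in both (-0.86 ± 0.21 and -1.03 ± 0.14), as did Kmt2d, an enhancer methyltransferase (-0.79 ± 0.16 and -0.68 ± 0.15). Kmt2c, which shares that role, was called in M-MDSCs (-0.62 ± 0.17) and stayed under the 1.5-fold minimum in G-MDSCs (-0.52 ± 0.15, edgeR FDR 0.0263). Kmt2b, the closest relative of Kmt2a, read 49.4, 32.2, 58.2 and 52.9 CPM in WT and 90.8, 94.8, 92.8 and 113 CPM in Nlrp3-/- G-MDSCs. It rose there by 0.93 ± 0.19 (edgeR FDR 0.00469), and in M-MDSCs, where 29.4, 32.8, 34.8 and 33.9 and 42.3, 43.8, 34.7 and 46.2 CPM overlapped, its change was 0.38 ± 0.16. Kmt2e was not called in either subset (-0.19 ± 0.15 and -0.41 ± 0.15).

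Of 11 Setd genes 2 fell and 1 rose in M-MDSCs, and 2 fell in G-MDSCs. Setd2, which writes lysine 36 trimethylation on transcribed genes, read 179.7, 242, 212 and 229.9 against 113, 153, 108 and 109 CPM in M-MDSCs and 314, 333, 351 and 385 against 238, 227, 191 and 175 CPM in G-MDSCs. It fell by near-equal amounts in both (-0.81 ± 0.17 and -0.82 ± 0.16). Setdb2, a lysine 9 methyltransferase of low abundance, gave 14.7, 11.2, 8.92 and 11 CPM in WT and 3.61, 4.61, 2.3 and 1.67 CPM in Nlrp3-/- M-MDSCs (-1.87 ± 0.35, edgeR FDR 0.00773), and in G-MDSCs, where its libraries ranged from 0 to 6.68 CPM, it was not called. Setd1b, a catalytic subunit of the SET1 lysine 4 complex, rose in M-MDSCs from 107, 110.0, 128 and 131 to 187, 189, 168 and 180.1 CPM (0.63 ± 0.14, FDR 0.0175) and was not called in G-MDSCs (0.26 ± 0.15). Setd8, the lysine 20 monomethyltransferase of histone H4, was called lower in G-MDSCs (-1.02 ± 0.29) with groups that overlapped, since Nlrp3-/- replicate 1 stood at 97.5 CPM and the other Nlrp3-/- libraries at 33.0 to 53.3 CPM, against 89.5 to 146 CPM in WT; Setd8 lies outside the rule by which genes were named and was picked after its values were seen.

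Demethylases were called lower more often than higher, with 4 lower and 1 higher of 15 in M-MDSCs and 6 lower and 1 higher in G-MDSCs. Kdm5b (chr1:134560171-134635285), which removes lysine 4 trimethylation, stood at 42.7, 34.2, 27.8 and 32.2 CPM in WT against 16.8, 19.6, 13.4 and 15 CPM in Nlrp3-/- M-MDSCs, and at 209, 245, 193 and 153 against 103, 103, 116 and 97.6 CPM in G-MDSCs. It fell by 1.05 and 1.01 on the log2 scale, from WT levels that differed between the subsets. Its relative Kdm5a was called in G-MDSCs (-0.79 ± 0.17; M-MDSCs -0.58 ± 0.19). Kdm1a, the lysine-specific demethylase of the CoREST complex, read 47.9, 43.6, 28 and 36.7 against 21.3, 16, 14.8 and 14 CPM in M-MDSCs and 32.7, 46.7, 26.7 and 30.7 against 22.2, 21.7, 20.5 and 15.2 CPM in G-MDSCs. No libraries overlapped in either subset (-1.20 ± 0.23 and -0.86 ± 0.24). Kdm4c, of the family that demethylates lysines 9 and 36, lay near the floor, at 7.8, 6.75, 6.42 and 8.22 against 3.14, 2.05, 3.34 and 1.54 CPM in M-MDSCs and 7.68, 14.9, 7.51 and 15.6 against 5.54, 1.23, 4.35 and 0.787 CPM in G-MDSCs, so that the size of its changes (-1.50 ± 0.34 and -1.99 ± 0.55) was poorly fixed. The lysine 9 demethylase Kdm3b fell in both subsets (-0.88 ± 0.26 and -1.08 ± 0.32), with overlapping groups in G-MDSCs. Kdm4a (chr4:118136957-118180043), the paralog of Kdm4c, went the other way. Its libraries were at 52.6, 53.4, 68.9 and 50.7 CPM in WT and 94.2, 93.7, 77.3 and 99.3 CPM in Nlrp3-/- M-MDSCs, and at 103, 104, 135 and 162 against 249, 302, 274 and 273 CPM in G-MDSCs. All Nlrp3-/- libraries were above all WT libraries, and Kdm4a rose by 0.72 ± 0.16 (edgeR FDR 0.0175) and 1.04 ± 0.17 (FDR 0.00125).

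Deacetylases were the family with the fewest lower calls. Of 10 Hdac genes 1 fell and 1 rose in M-MDSCs, and 1 rose in G-MDSCs, with family medians of 0.27 and 0.06. The gene that rose in both was Hdac5 (chr11:102194432-102230166), a class IIa deacetylase that shuttles between nucleus and cytoplasm. It read 60.9, 54.3, 61.7 and 81.9 CPM in WT and 97.8, 89.7, 96.3 and 111 CPM in Nlrp3-/- M-MDSCs, and 69.8, 63.3, 69.8 and 107 against 152, 148, 173 and 149 CPM in G-MDSCs. The groups were separated in both, with log2 fold changes of 0.64 ± 0.16 (edgeR FDR 0.0289) and 0.92 ± 0.18 (FDR 0.00371). Hdac2, a class I catalytic subunit of Sin3, NuRD and CoREST complexes, fell in M-MDSCs from 28.6 ± 2.69 to 17.5 ± 2.15 CPM (-0.68 ± 0.18) and was not called in G-MDSCs (-0.36 ± 0.30).

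**Figure D2:**
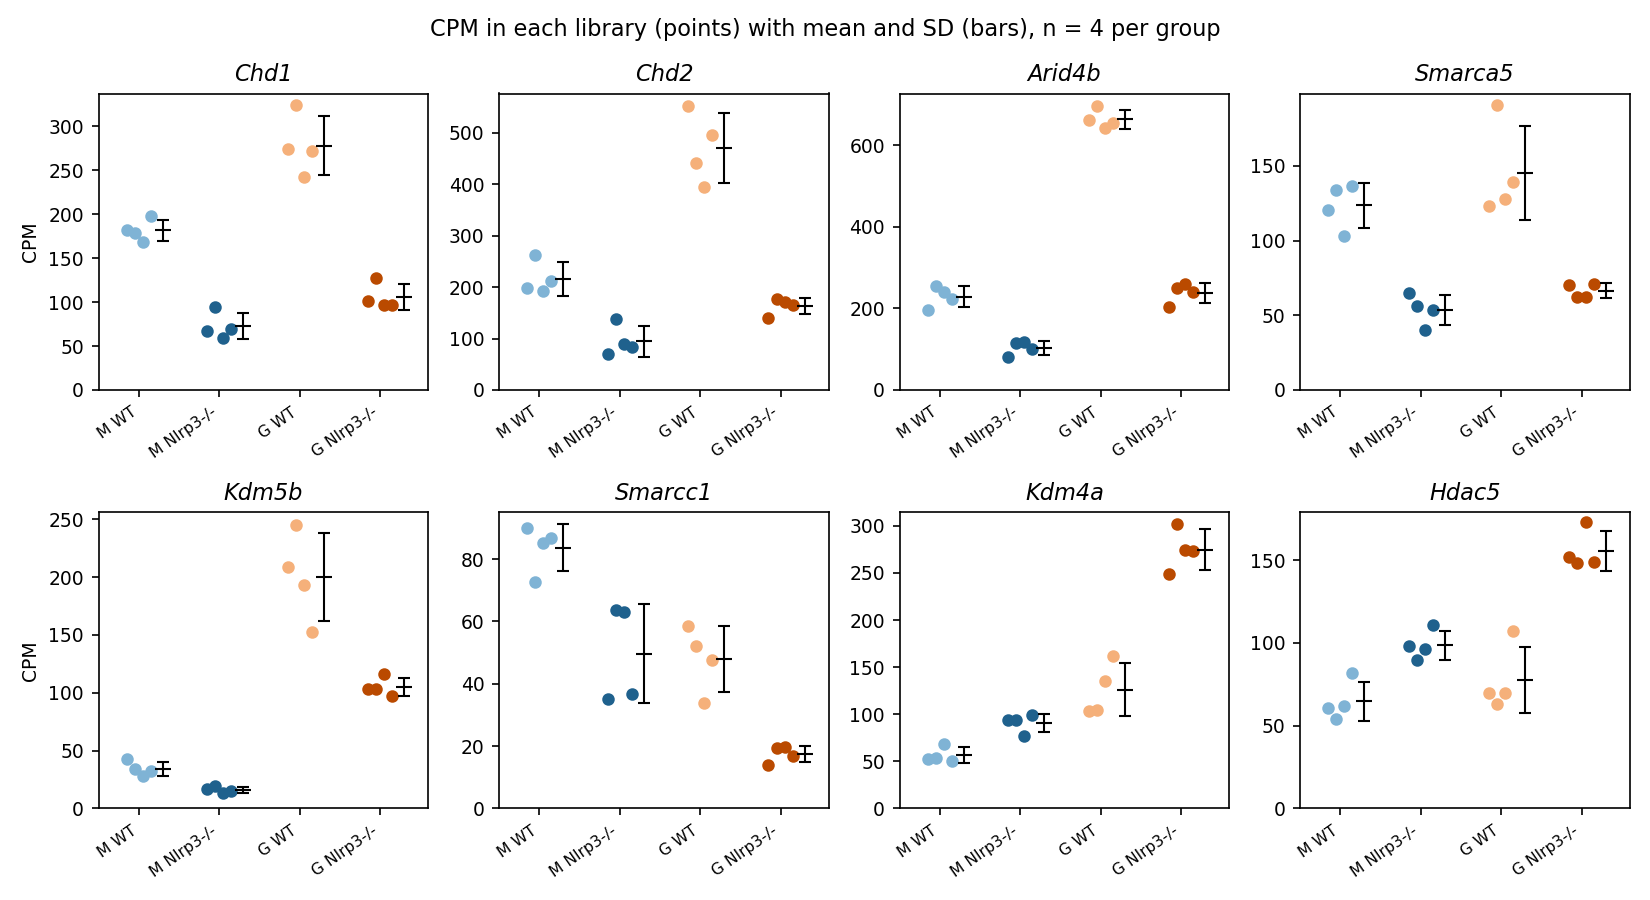
CPM of 8 chromatin genes in each of 16 libraries (points), with the mean and SD of each group (bars), n = 4 libraries per group; each vertical axis starts at 0 CPM. Chd1, Chd2, Arid4b, Smarca5, Kdm5b and Smarcc1 are lower and Kdm4a and Hdac5 higher in all Nlrp3-/- libraries than in any WT library of the same subset.

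The DNA upstream of genes that moved in the same direction in both subsets was compared next. RefSeq windows for assembly GRCm38.p6, of 250 bases that end just before the annotated start, were available for 51 of the 70 genes, and not for Chd1, Chd2 or Smarce1. RefSeq starts need not be the ends of the gene spans given above, which are from GENCODE, so a window may overlap a span. The windows of Arid4b (chr13:14063534-14063783, plus strand), Smarca5 (chr8:80739460-80739709, minus strand) and Kdm5b (chr1:134559928-134560177, plus strand), which fell, and of Hdac5 (chr11:102230173-102230422, minus strand) and Kdm4a (chr4:118180044-118180293, minus strand), which rose, are shown 5′ to 3′ on the strand of the gene. Capitals mark the matches to 5 motifs searched on both strands, which are the TATA box (TATAAA), the CCAAT box, the E-box (CACGTG), the GC box (GGGCGG) and a core of ETS factor sites (CCGGAA).
Arid4b: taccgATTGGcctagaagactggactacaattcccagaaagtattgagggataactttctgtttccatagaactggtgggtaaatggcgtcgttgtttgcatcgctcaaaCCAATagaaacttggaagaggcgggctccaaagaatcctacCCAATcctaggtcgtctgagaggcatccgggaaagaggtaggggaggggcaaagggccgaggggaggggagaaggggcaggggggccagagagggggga
Smarca5: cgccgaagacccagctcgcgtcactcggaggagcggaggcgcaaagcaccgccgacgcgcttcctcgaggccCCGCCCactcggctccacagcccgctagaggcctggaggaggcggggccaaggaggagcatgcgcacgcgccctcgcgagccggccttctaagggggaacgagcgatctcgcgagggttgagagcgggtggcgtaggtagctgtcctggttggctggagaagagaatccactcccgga
Kdm5b: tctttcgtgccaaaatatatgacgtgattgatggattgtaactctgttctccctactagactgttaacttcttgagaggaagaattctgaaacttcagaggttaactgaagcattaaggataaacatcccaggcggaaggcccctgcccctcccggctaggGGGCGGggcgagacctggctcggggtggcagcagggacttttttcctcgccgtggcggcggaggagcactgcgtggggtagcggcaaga
Hdac5: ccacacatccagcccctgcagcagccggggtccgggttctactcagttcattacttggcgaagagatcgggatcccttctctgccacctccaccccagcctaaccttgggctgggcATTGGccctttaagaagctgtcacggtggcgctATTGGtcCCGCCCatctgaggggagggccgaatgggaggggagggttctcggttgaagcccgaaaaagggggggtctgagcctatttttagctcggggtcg
Kdm4a: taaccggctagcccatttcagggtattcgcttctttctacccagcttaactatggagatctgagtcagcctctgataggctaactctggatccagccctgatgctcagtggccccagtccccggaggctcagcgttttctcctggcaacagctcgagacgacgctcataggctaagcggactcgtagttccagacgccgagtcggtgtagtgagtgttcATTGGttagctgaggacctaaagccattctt

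These windows held no match to the TATA box, the E-box or the ETS core. Arid4b had 3 matches to CCAAT, Smarca5 and Kdm5b 1 match each to GGGCGG, Hdac5 2 matches to CCAAT and 1 to GGGCGG, and Kdm4a 1 match to CCAAT. The 51 windows, 1 for each gene, had a median of 20 CpG against 6 over all 32851 windows. Those belonged to 27025 genes, with more than 1 window for some and with genes that did not pass the count minimum. The contrasts here therefore cannot set chromatin genes apart from other expressed genes. GGGCGG was present in 66.7% of the 51 windows against 32.7% of all, CCGGAA in 25.5% against 12%, CCAAT in 37.3% against 33.8%, TATAAA in 7.84% against 12.4% and CACGTG in 1.96% against 6.02%. Of 10 windows from genes lower in both subsets, 7 held GGGCGG (70%), a share close to that of the 51, and both windows from the genes higher in both held CCAAT. A match is only the presence of these letters.

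Chromatin genes have long transcripts, and transcript length went with the genotype difference across all genes. The 70 had a median transcript length of 5892.5 bases against 3088 bases for all genes tested in M-MDSCs, and 47 of them lay in the longest of 4 classes of equal gene number. In that class 14.9% of all genes were called lower in Nlrp3-/- M-MDSCs and 24.5% in G-MDSCs, with median log2 fold changes of -0.19 and -0.32, whereas in the shortest class 2.25% and 3.86% were called lower. The 47 long chromatin genes had 13 lower calls in M-MDSCs (27.7%) and 17 in G-MDSCs (36.2%), with medians of -0.33 and -0.52. When the fold changes were refitted with GC content and transcript length as smooth terms, 11 chromatin genes were called in M-MDSCs (15.7%, against 6.53% of all genes) and 16 in G-MDSCs (22.9%, against 10.6%), and the medians were -0.13 and -0.19. GC content and length were fitted together, and their parts were not separated. The median GC content of the 70 was 50.9%, against 49.9% for all genes tested. It ranged from 40.7% (Smarca5) to 58.4% (Kmt2d) in the 15 genes lower in both subsets. In genes called higher in either subset it ranged from 53.6% (Kdm4a) to 59.1% (Kmt2b). Of the 21 original calls 9 remained in M-MDSCs, and of 25 in G-MDSCs 14 remained. The rest of the 11 and 16 corrected calls were not original calls of the same direction. Genes called the same way in both subsets with and without that correction were Arid4b, Chd1, Chd2, Kdm1a, Smarca5 and Smarce1, which fell, and Kdm4a, which rose. The correction ended 6 calls in both subsets, with corrected log2 fold changes in M-MDSCs and G-MDSCs of -0.36 and -0.24 for Setd2, -0.50 and -0.54 for Kmt2a, -0.57 and -0.40 for Kmt2d, -0.37 and -0.22 for Chd9, -0.83 and -0.98 for Kdm3b and -1.21 and -1.58 for Kdm4c. In M-MDSCs it also ended those of Arid4a (-0.41), Smarcc1 (-0.51), Hdac2 (-0.40), Kmt2c (-0.14), Hdac5 (0.46) and Setd1b (0.59). In G-MDSCs it ended those of Kdm5b (-0.55), Kdm5a (-0.08), Chd6 (-0.34), Smarca2 (-0.58) and Kdm3a (-0.95), the last of which lies outside the naming rule.

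**Figure D3:**
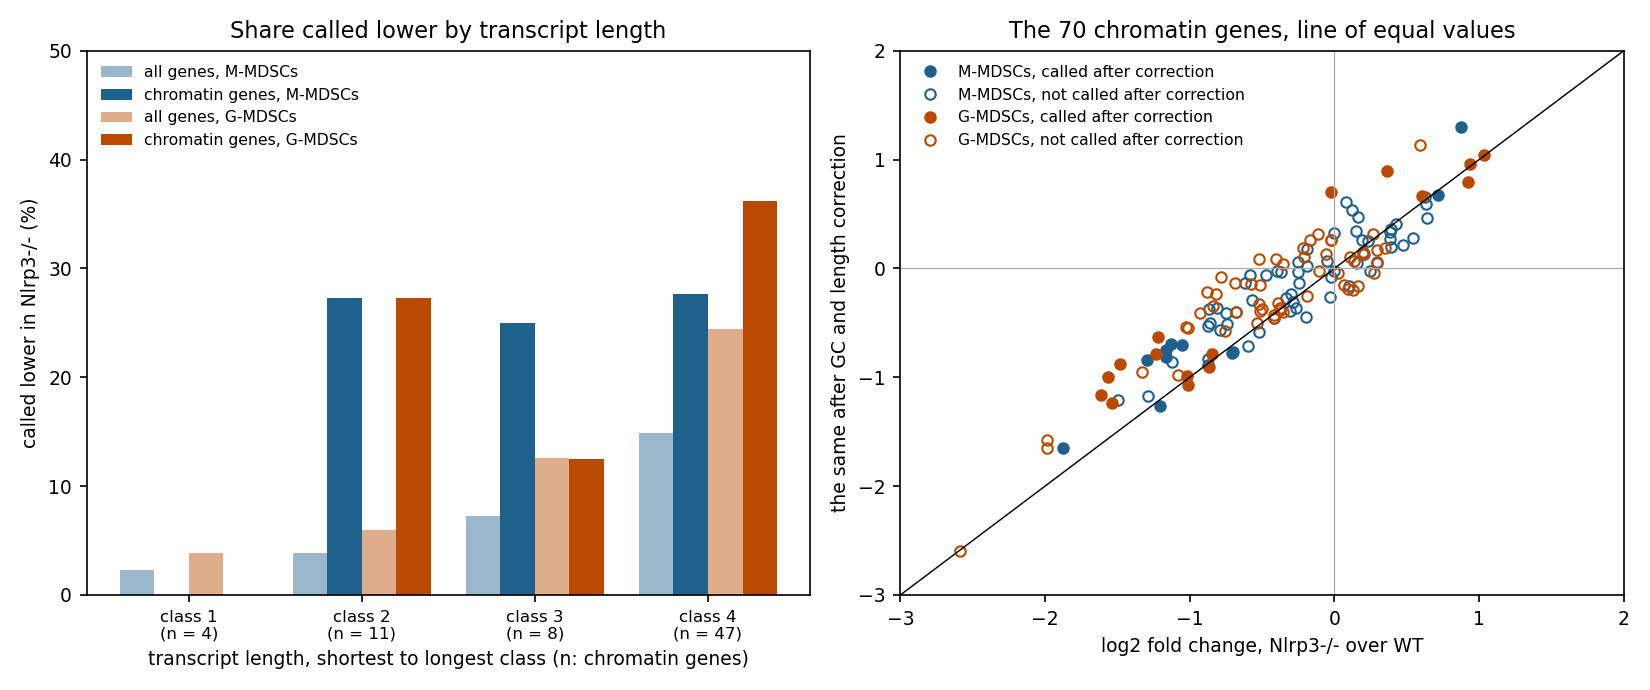
Left, percent of genes called lower in Nlrp3-/- cells by class of transcript length from shortest (1) to longest (4), for all genes tested (pale bars) and the chromatin genes (dark bars) in M-MDSCs (blue) and G-MDSCs (orange); in the longest class the chromatin genes reach 27.7 and 36.2% against 14.9 and 24.5% of all genes. Right, log2 fold change of each chromatin gene before (horizontal) and after (vertical) correction for GC content and length, with filled points called after correction.

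Leaving out single libraries changed the calls more in M-MDSCs than in G-MDSCs. Refits that left out each of the 8 libraries in turn gave 9 to 24 called chromatin genes in M-MDSCs, with 11 without WT replicate 2, 11 without WT replicate 4 and 9 without Nlrp3-/- replicate 4, and 21 to 25 in G-MDSCs. The share of all genes called varied too, from 4.44 to 17.6% in M-MDSCs and from 11.5 to 16.2% in G-MDSCs. Calls that held in all 8 refits numbered 9 of 21 in M-MDSCs, namely Arid4b, Chd1, Chd2, Kdm1a, Kdm5b, Kmt2d, Setd2, Setdb2 and Smarca5, and 19 of 25 in G-MDSCs. Arid4b, Chd1, Chd2 and Smarca5 were called in all of these refits and after the GC and length correction in both subsets.

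The genotype effect was also compared between subsets, by the difference between the effect in G-MDSCs and that in M-MDSCs over all 16 libraries. None of the 70 genes was called in edgeR or in DESeq2, against 3 of 10696 genes in all (0.028%). An unadjusted p under 0.05 was reached by 3 of the 70, against 480 of all genes (4.49%), and the lowest adjusted p among the 70 was 0.953. Those 3 were Kmt2b, which differed by 0.66 ± 0.25, Smarcc1 by -0.69 ± 0.31 and Hdac8, a class I deacetylase, by -3.12 ± 1.05. Hdac8 was seen in only 1 of 4 Nlrp3-/- G-MDSC libraries, with 13 counts there and 9 to 17 in WT G-MDSC libraries. Genes called in a single subset are therefore not shown to respond differently between them. These fits had no term for the mouse, although both subsets came from each mouse. With a block for the mouse, edgeR called 4 of all 10696 genes (0.0374%).

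G-MDSCs and M-MDSCs differed in chromatin genes at a rate near that over all genes. In WT mice 41 of the 70 were called (58.6%), 28 higher (40%) and 13 lower (18.6%) in G-MDSCs. In Nlrp3-/- mice 35 were called (50%), 22 higher (31.4%) and 13 lower (18.6%). Of all genes tested, the same call was made for 53.3% of 9739 in WT (26.3% higher and 27.1% lower) and 51% of 10071 in Nlrp3-/- mice (23.7% higher and 27.4% lower). With scaling by library size alone, which moved the median of all genes from -0.05 to -0.79 in WT and from -0.12 to -0.83 in Nlrp3-/- mice, the calls turned to 10 higher and 29 lower and to 8 higher and 28 lower. Over all genes that scaling gave 12% higher and 52% lower in WT and 11.4% higher and 50% lower in Nlrp3-/- mice. The medians of the 70 were 0.35 and 0.26 in the first scaling and -0.40 and -0.46 in the second, above the median of all genes in each case. All G-MDSC libraries lay above all M-MDSC libraries for 30 of the 70 in WT (42.9%, against 25.5% of all genes) and 28 in Nlrp3-/- mice (40%, against 26.2%), and below them for 11 (15.7%, against 26.4%) and 10 (14.3%, against 24%). Differences below are relative to the first scaling, and higher calls are named by whether they held in both. Across genotypes 20 genes were higher in both (71.4% of the WT and 90.9% of the Nlrp3-/- list, against 79.5% and 85.3% over all genes) and 10 were lower in both (76.9% of each list, against 80.4% and 76.9% over all genes).

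**Figure D4:**
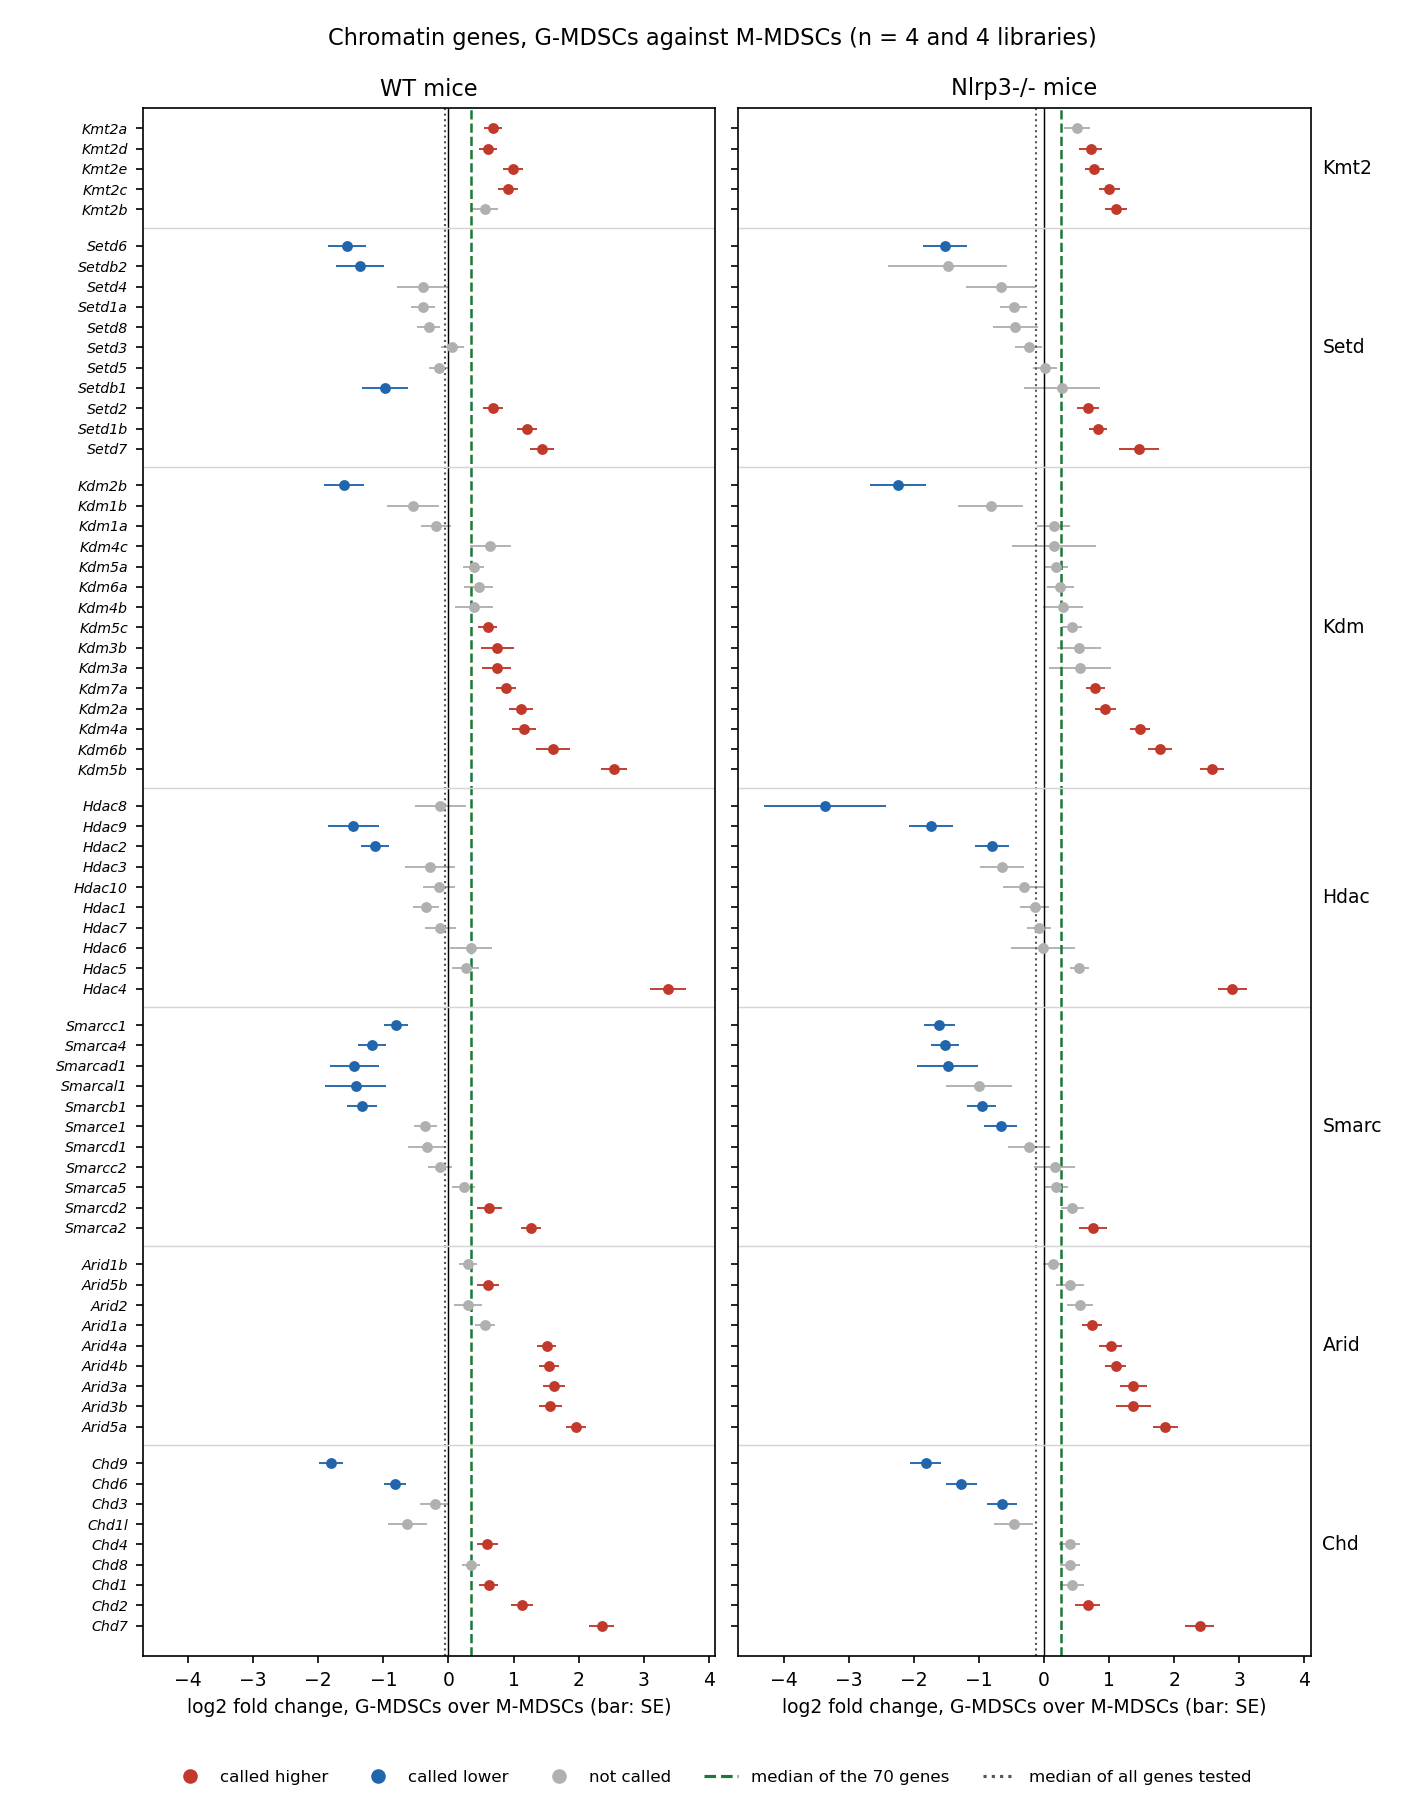
Log2 fold change of G-MDSCs over M-MDSCs for each of the 70 chromatin genes by family, in WT (left) and Nlrp3-/- mice (right), with the standard error as a bar, n = 4 and 4 libraries. Dashed and dotted lines are the medians of the 70 (0.35 and 0.26) and of all genes (-0.05 and -0.12); with scaling by library size alone the medians of the 70 are -0.40 and -0.46.

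Among genes higher in G-MDSCs under both scalings and in both genotypes, the largest difference was that of Hdac4, a class IIa deacetylase. Its libraries gave 12.1, 13.2, 15 and 17.5 CPM in WT M-MDSCs and 111, 238, 135 and 109.7 CPM in WT G-MDSCs, with log2 fold changes of 3.37 ± 0.27 in WT and 2.89 ± 0.22 in Nlrp3-/- mice. Kdm5b, given above, was higher by 2.55 ± 0.20 and 2.58 ± 0.18. Chd7, a remodeler of enhancers, read 99.6, 166, 112 and 136 CPM in WT M-MDSCs against 614, 624, 754 and 627 CPM in WT G-MDSCs (2.35 ± 0.19 in WT and 2.39 ± 0.23 in Nlrp3-/- mice). No library of either subset overlapped for these genes. Kdm6b, the inducible lysine 27 demethylase of inflammatory gene activation, went from 125 ± 33.2 to 379.6 ± 141 CPM in WT mice (1.61 ± 0.26 and 1.78 ± 0.18). Arid5a, an RNA-binding protein that stabilizes inflammatory mRNAs, and the DNA-binding proteins Arid3a and Arid3b completed the genes that held in both genotypes under both scalings (1.96, 1.62 and 1.57 in WT mice). All 9 Arid and all 5 Kmt2 genes had values above 0 in both genotypes in the first scaling (48.4% of all genes in WT and 46.2% in Nlrp3-/- mice did), with family medians of 1.51 and 1.02 for Arid and 0.68 and 0.77 for Kmt2, but with library size alone 4 Arid and 3 Kmt2 genes were below 0 in WT and 3 Arid and 2 Kmt2 genes in Nlrp3-/- mice, and no Kmt2 call held.

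Lower calls in G-MDSCs were not put to a test by scaling on library size, which moved all genes downward. Of the 13 lower calls in WT mice 3 were core SWI/SNF subunits, namely Smarca4, one of its ATPases, at 233, 183, 189 and 169 CPM in WT M-MDSCs against 93.1, 118, 71.2 and 59.9 CPM in WT G-MDSCs (-1.17 ± 0.21 in WT and -1.53 ± 0.21 in Nlrp3-/- mice), Smarcb1 at -1.32 ± 0.23 and -0.96 ± 0.23 and Smarcc1 at -0.80 ± 0.19 and -1.61 ± 0.25. In the same family Smarca2 went the other way in the first scaling (1.26 ± 0.15 and 0.75 ± 0.21). Smarcd2 was called higher in WT mice (0.63 ± 0.20) and not in Nlrp3-/- mice (0.43 ± 0.18). These higher calls did not hold with library size alone. Chd9 read 173, 129, 109 and 162 CPM in WT M-MDSCs and 46.1, 42.6, 37.6 and 37.4 CPM in WT G-MDSCs, and was lower by 1.81 on the log2 scale in WT and 1.82 in Nlrp3-/- mice. Kdm2b, which recruits a Polycomb complex to CpG islands, was lower as well (-1.61 ± 0.30 and -2.24 ± 0.43), and so were Setd6, a methyltransferase of the NF-κB subunit RelA (-1.56 ± 0.29 and -1.53 ± 0.34), Hdac9 (-1.46 ± 0.39 and -1.74 ± 0.34), Hdac2 (-1.13 ± 0.22 and -0.80 ± 0.26) and Smarcad1 (-1.44 ± 0.37 and -1.48 ± 0.47). Of the 41 calls in WT and 35 in Nlrp3-/- mice, 30 and 30 held when each library was left out in turn. Without WT M-MDSC replicate 2, the library with the high granulocytic markers, 34 genes were called in WT mice, 22 higher and 12 lower, and the median of the 70 was 0.26. Over all genes 51.5% were called in that fit, 24.6% higher and 26.9% lower.

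Other chromatin genes, from 11 lists of complexes and enzymes, showed the genotype difference unevenly. Of 155 such genes 142 were tested in M-MDSCs, with 25 lower and 1 higher, and 138 in G-MDSCs, with 36 lower and 1 higher (over all genes 7.1% were lower and 3.51% higher, and 11.7% lower and 4.7% higher), and their medians were -0.15 and -0.25. Values of these lists are given without the GC and length correction, although lower calls went with transcript length over all genes. The part of length in them was not tested. The list of ISWI, INO80 and SRCAP remodelers also held the ATPases Hells, Atrx, Ercc6, Btaf1, Ttf2 and Hltf, which lie outside these 3 groups. It had more lower calls than any other list, 9 of 19 in M-MDSCs (median -0.75) and 12 of 20 in G-MDSCs (median -1.13). Among the called genes were Srcap, which exchanges histone H2A.Z (-1.83 and -3.0), and Atrx, which helps to deposit histone H3.3 (-1.27 and -1.56). DNA methylation genes had 2 of 8 and 4 of 9 lower, with the 5-methylcytosine oxidases Tet2 (-0.92 and -1.09) and Tet3 (-0.93 and -1.15). Histone acetyltransferases had 4 and 5 of 16 lower, with Crebbp (-0.73 and -1.12) and Kat6a (-1.07 and -1.07). Subunits that accompany the Kmt2 enzymes, the MLL core, gave 0 calls of 10 in either subset. The remaining lists had 2 lower and 1 higher of 15 and 4 lower of 12 (other lysine methyltransferases), 2 of 10 and 2 of 10 lower (PRC2), 1 of 20 and 1 of 17 lower (PRC1), 2 of 15 and 4 of 15 lower (other BAF and PBAF subunits), 0 of 3 and 1 of 3 lower (BET proteins) and 0 of 5 and 0 of 5 (sirtuins). In the lists with 0 calls DESeq2 called 0 as well, and an unadjusted edgeR p under 0.05 was reached by 1 of 10 MLL core genes in M-MDSCs and 0 of 10 in G-MDSCs, by 1 of 3 BET genes in M-MDSCs and by 0 of 5 sirtuin genes in either. HDAC complex scaffolds other than Arid4a and Arid4b had 3 of 21 lower in M-MDSCs, and 3 of 21 lower with 1 higher in G-MDSCs. Between the subsets 40 were higher and 15 lower in G-MDSCs of 139 tested in WT mice, and 31 higher and 23 lower of 139 in Nlrp3-/- mice, beside 26.3% higher and 27.1% lower and 23.7% higher and 27.4% lower over all genes.

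Of the 70 genes 4 lie on the X chromosome, and none of these was called by genotype in edgeR or DESeq2, although an unadjusted edgeR p under 0.05 was reached by 2 in M-MDSCs and 3 in G-MDSCs. Kdm5c and Kdm6a, the X-linked demethylases of lysines 4 and 27, had log2 fold changes of -0.33 ± 0.15 and -0.47 ± 0.19 in M-MDSCs and of -0.51 ± 0.15 and -0.68 ± 0.23 in G-MDSCs. In G-MDSCs Kdm5c had an edgeR FDR of 0.0285, with all Nlrp3-/- below all WT libraries, and missed a call by the 1.5-fold minimum. The deacetylase genes Hdac6 and Hdac8 were at 0.16 ± 0.35 and 0.63 ± 0.40 in M-MDSCs and at -0.19 ± 0.46 and -2.59 ± 0.95 in G-MDSCs. Xist, the X-linked RNA of X inactivation, was at 516 to 675 CPM in WT against 378 to 545 CPM in Nlrp3-/- M-MDSCs and at 272 to 405 against 199 to 226 CPM in G-MDSCs, where it was called lower. The Y-linked Kdm5d had no count in any library, and 3 other Y-linked genes were at or near 0.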

How the data were processed

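Libraries were prepared by QuantSeq 3′ FWD and sequenced on a NextSeq instrument. Per the labels and the study's methods, the authors aligned reads to mm10 with HISAT2 2.1.0, counted strand-specific reads per gene with HTSeq and tested with edgeR 3.14.0 (versions from the submitters' processing notes). The deposited values are raw counts per gene symbol. A 3′ library counts about 1 fragment per transcript. The part of RNA integrity in the values was not tested.

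Here genes passing filterByExpr in the 8 libraries of a comparison were scaled by TMM and tested by quasi-likelihood in edgeR 4.0.16 (limma 3.58.1, R 4.3.3), with FDR under 0.05 and a change above 1.5-fold as the call. Genotype effects were compared between the subsets in a model of all 16 libraries. The scripts were tested on simulated data. Printed CPM used TMM factors over all 16 libraries, so a mean ratio can differ from the fitted fold change. SE was the log2 fold change divided by the square root of F. Libraries held 2295967 to 6079866 counts, which sets a floor of 3 counts at 0.493 to 1.31 CPM (counting error only). Groups came from the sample labels, which give 4 mice per genotype, each with both subsets. M-MDSC and G-MDSC libraries with the same number and genotype are from 1 mouse by the labels (mean correlation of deviations 0.24 in WT and 0.19 in Nlrp3-/- mice); blocking on the mouse left the subset calls at 41 and 35. The 24 pairs of libraries within groups differed by 6.76 to 50.6 times the counting variance.

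GC content and length came from GENCODE vM21 (GRCm38), which matched all 70 genes and 24046 symbols. Named were the called genes of each comparison (up to 12 per direction by smallest p), genes called the same way in both subsets, the 2 most abundant of each family, genes on sex chromosomes and up to 3 called genes of each chromatin list. Genes, lists and tests were chosen with earlier results of these data known. Alternatives were DESeq2 1.42.0, the edgeR exact test, DESeq2 size factors, library size alone, other count filters, no fold minimum, all 16 libraries, a replicate block, GC and length correction with and without the block, and leaving out each library.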

Additional observations from a re-analysis of the deposited data

Results flagged for a closer look

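Single libraries that stood far from the other 3 of their group, by a gap to the nearest library, as a share of the range of the group, above Dixon's 95% critical value, were found for 18 of 204 combinations of a named gene and a group; chance gives about 1 in 20. In WT M-MDSCs these were Kdm2a at 152 CPM in replicate 1, Kmt2e at 468 CPM in replicate 1, Kdm6b at 174 CPM in replicate 2 and Kdm4a at 68.9 CPM in replicate 3. Nlrp3-/- M-MDSCs gave Hdac7 at 63.4 CPM in replicate 1, Setd2 at 153 CPM in replicate 2 and Kdm3b at 7.07 CPM in replicate 4. In WT G-MDSCs the values were Kdm6b at 589 CPM in replicate 2, Chd6 at 31.5 CPM and Chd7 at 754 CPM in replicate 3, and Hdac5 at 107 CPM, Hdac9 at 4.67 CPM and Smarcal1 at 7.01 CPM in replicate 4. Nlrp3-/- G-MDSCs gave Chd1 at 127 CPM and Setd7 at 85.7 CPM in replicate 2, Hdac5 at 173 CPM and Hdac8 at 2.69 CPM in replicate 3, and Chd4 at 348 CPM in replicate 4. Kdm6b, the inducible lysine demethylase, was the only gene for which the same mouse, WT replicate 2, stood apart in both subsets. The Hdac8 value is 13 counts beside 3 libraries with none. For Chd1, Setd2, Kdm4a and Hdac5 the library that stood apart did not overlap with the other genotype.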

How the results depend on the processing

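Across the alternatives the medians stayed below 0 in the genotype comparisons, and wherever calls were made more were lower than higher; between the subsets the medians reversed with library size alone (-0.40 in WT and -0.46 in Nlrp3-/- mice). In M-MDSCs 21 genes were called; the count was 10 with the replicate block (0 higher), 11 with GC and length correction and 0 with both together, and the median of -0.28 became -0.17 with library size alone, -0.13 with GC and length correction and -0.16 with the block added to it. In G-MDSCs 25 became 16 with the correction and 8 with the block added to it, and the median of -0.40 became -0.28 with library size alone, -0.19 and -0.21 with those corrections and -0.31 in a model of all 16 libraries. Over all genes 10.6% were called in M-MDSCs, with 4.26% under the block, 6.53% under the correction and 0.371% under both. In G-MDSCs the shares of all genes were 16.4%, 10.6% under the correction and 4.14% under both. Same-numbered WT and Nlrp3-/- libraries share only a number: their deviations correlated at -0.16 in M-MDSCs and -0.15 in G-MDSCs and none correlated best with its own number. The median between subsets became 0.45 in WT mice with at least 10 counts in every library and 0.37 in Nlrp3-/- mice in the model of all 16 libraries. Single genes without a call in the main fit changed sign, and with the correction Kdm7a passed the 1.5-fold minimum in G-MDSCs. In M-MDSCs Kmt2e was at 0.18 with the correction and 0.18 with the block added. In G-MDSCs the correction without and with the block gave Chd7 0.10 and 0.074, Kmt2c 0.086 and 0.11, Kmt2e 0.082 and 0.080 and Kdm7a 0.70 and 0.71, and Kdm7a was at 0.0011 in DESeq2, 0.097 with library size alone and 0.065 in the model of all 16 libraries. The causes were not tested. Leaving out 1 library gave Kdm7a values of -0.010 to 0.12 in M-MDSCs and -0.072 to 0.086 in G-MDSCs, and 9 to 24 calls and medians of -0.39 to -0.25 in M-MDSCs, 21 to 25 and -0.43 to -0.30 in G-MDSCs, 34 to 40 and 0.26 to 0.36 between subsets in WT mice, 33 to 36 and 0.18 to 0.35 in Nlrp3-/- mice, and 0 or 1 call for the difference of genotype effects. Over all genes such fits called 4.44 to 17.6% in M-MDSCs and 11.5 to 16.2% in G-MDSCs. Between subsets they called 48.8 to 52.3% in WT and 46.9 to 49.8% in Nlrp3-/- mice. Genes near 5 CPM, such as Hdac8 and Kdm4c, had 0 to 59 counts per library, too few to fix a fold change.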

Other observations

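Setd8, Kdm3a and Smarcc2 shared a pattern among the Nlrp3-/- mice that was noticed after their values were seen and was not tested. In the cells of Nlrp3-/- mouse 1, Setd8 stood at 123 CPM in M-MDSCs and 97.5 CPM in G-MDSCs, and in the other 3 mice at 49.5 to 60.1 CPM and 33.0 to 53.3 CPM, with WT libraries at 118 to 146 CPM and 89.5 to 146 CPM. Smarcc2, a SWI/SNF scaffold, stood at 67.4 and 91.7 CPM in that mouse and at 24.4 to 58.5 CPM and 43.3 to 51.3 CPM in the other 3, and Kdm3a, a demethylase of lysine 9, at 17.9 and 26.1 CPM against 3.97 to 9.25 CPM and 8.08 to 17.5 CPM. Other genes also stood highest in that mouse among the Nlrp3-/- mice. Arid3a was at 82.5 and 204 CPM against 46.6 to 54.7 CPM and 148 to 159 CPM. Arid2 was at 48.5 and 80.2 CPM against 35.5 to 37.7 CPM and 54.8 to 58.8 CPM.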
